A study of Mus musculus with 6 samples.

Results

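The 9 genes described here build or bind the poly(A) tail of mRNAs: the 4 members of the TENT5 family (*Tent5a*, *Tent5b*, *Tent5c* and *Tent5d*), the canonical poly(A) polymerases *Papola* and *Papolg*, and the poly(A)-binding proteins *Pabpc1*, *Pabpc4* and *Pabpn1*. They were taken by symbol from the 54446 genes listed, and 7 of the 9 passed the mean of 10 normalized counts that the test required. *Tent5b* and *Tent5d* did not pass.

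RNA came from splenic B cells of *Tent5c* KO mice and their WT littermates, 3 libraries of each genotype, on the mixed background C57BL/6J X CBA. The animals were young adults born to heterozygous parents. Naive B cells of both genotypes were purified by negative selection and stimulated in culture with LPS (20 µg/ml) together with IL-4 (20 ng/ml) over 7 days, so no resting cells were compared. The libraries were strand-specific and made after removal of ribosomal RNA, without selection on the poly(A) tail. Per the methods of the study, each replicate came from KO and WT littermates. Libraries with the same replicate number in their labels were therefore taken as a littermate pair, and this match by number is an assumption. The limma *p*-values rest on the spread between these 3 pairs. That spread is moderated across genes, so for a variable gene the SE can be smaller than its own pairs give. The KO line was made with CRISPR/Cas9, and the sequence of its allele is not given in the sources used here.

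Most mRNAs receive their tail in the nucleus, once the new transcript has been cut behind its polyadenylation signal, from PAPOLA or PAPOLG. Nuclear and cytoplasmic poly(A)-binding proteins coat the tail, and the cytoplasmic ones link it to translation and decay. TENT5 enzymes are non-canonical polymerases that can lengthen tails in the cytoplasm. TENT5C is known from plasma cells and multiple myeloma, and acts on mRNAs of secreted proteins such as immunoglobulins.

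Between 5393558 and 6793520 fragments per library lay on genes, and 3 fragments, the floor used for detection, were worth 2.72 to 3.61 normalized counts. B cell identity was checked with 6 markers, all averaging 10 or more, with summed levels of 28824 to 32723 normalized counts in the KO libraries and 27594 to 31710 in the WT libraries. Of 10 plasma cell markers, 9 passed that mean, with sums of 14267 to 23476 in KO and 14633 to 28331 in WT libraries. Markers of other cells were low: sums did not exceed 106 for T cells (2 of 10 genes passed), 166 for myeloid cells (3 of 10), 73.5 for NK cells (2 of 6) and 5.72 for erythroid cells (0 of 7). *S100a8*, *S100a9* and *Elane* of the myeloid list and *Hba-a1*, *Hba-a2* and *Hbb-bs* of the erythroid list were at 0.

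The 4 TENT5 genes encode related enzymes with a pair of aspartates in the active site. In TENT5C these are codons 90 and 92, which the study replaced in a separate line of catalytic mutant mice, with the same guide RNA that had been used for the KO line. The stretch of 27 coding bases around them is shown for each family member to let their sequences be compared, with the codons for the aspartates in capitals (Gencode vM21, GRCm38, coding strand).
Tent5a: ggctacaagGACctgGACctcatcttc
Tent5b: ggctacaagGACctgGACttggtgttc
Tent5c: ggttgcaaaGATctgGATctgatcttt
Tent5d: agctataaaGATttgGATattattttt

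The window of *Tent5c* lies at chr3:100473154-100473180 on the minus strand, in exon 2 of 2, which is coding there. Those of the other genes lie at chr9:85326379-85326405 on the minus strand (*Tent5a*, codons 144 and 146), chr4:133486183-133486209 on the plus strand (*Tent5b*, codons 125 and 127) and chrX:107870548-107870574 on the plus strand (*Tent5d*, codons 82 and 84). Both aspartates are encoded in all 4 genes, as GAC in *Tent5a* and *Tent5b* and as GAT in *Tent5c* and *Tent5d*. The translated coding sequence of *Tent5c* (391 residues) was closest to that of *Tent5a*, with 73.6% of aligned residues identical, against 62.7% for *Tent5b* and 62.4% for *Tent5d*. At the level of bases the genes were distinct: the longest run of coding bases that *Tent5c* shared with a family member was 17, and no stretch of 75 bases, the length of a read, occurred both in a TENT5 transcript and in that of another gene. Reads of this length can be told apart between these genes.

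*Tent5c* (ENSMUSG00000044468), the targeted gene, was transcribed in all 6 libraries. Its normalized counts were 1993, 993 and 1170 in the libraries labelled KO and 1255, 767 and 1585 in the libraries labelled WT, in the order of pairs 1, 2 and 3. The groups overlapped: the highest value came from a KO library and the lowest from a WT library. The pairs gave KO over WT ratios of 1.59, 1.29 and 0.739, and the log2 fold change was 0.20 (SE 0.19, 95% interval −0.26 to 0.66, limma adjusted *p* = 0.970). As a ratio, this interval runs from 0.834 to 1.58, and no decrease of the transcript in the libraries labelled KO was detected. The log2 ratios of the pairs had an SD of 0.57. With the moderated variance, the ratios of pairs 1 and 3 lay outside this interval. Without pair 1 the log2 fold change was −0.033, and without pair 3 it was 0.52. A count over the whole gene checks the labels only where an allele removes transcript, so the KO labels could not be checked from these values.

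*Tent5a*, the closest relative, was present at a trace level. It had 16, 11 and 14 fragments in the KO libraries and 28, 8 and 8 in the WT libraries, or 15.1, 10.5 and 12.7 against 26.4, 8.36 and 9.63 normalized counts. One WT library held the highest value, and the other 2 WT libraries held the lowest. The log2 fold change was −0.036 (SE 0.38, 95% interval −0.96 to 0.89, limma adjusted *p* = 0.996), so that with so few fragments a change of up to 1.85-fold up or 0.515-fold down lay within the interval. The log2 ratios of the pairs were −0.77, 0.29 and 0.37, and without pair 1 the log2 fold change was 0.33.

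The remaining family members were at the limit of detection. *Tent5b* had 1 fragment over all 6 libraries, in WT of pair 1. *Tent5d* had 3 fragments, 1 each in KO of pairs 2 and 3 and in WT of pair 2. Both genes were under the floor of 3 fragments in every library, and no fold change is given for them.

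*Tent5c* made up nearly all TENT5 transcripts. Its share of the TENT5 fragments of a library ran from 97.9% (WT of pair 1, 95% Wilson interval 96.9% to 98.5%) to 99.4% (WT of pair 3, 98.8% to 99.7%), with intervals that cover counting error only. Per kilobase of exon its level was 44.4 to 154 times that of *Tent5a*, both extremes being WT libraries. In the KO libraries this ratio was 123, 88.6 and 86.1. No other member of the family was detected above a trace in the libraries labelled KO.

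*Papola*, which makes the tails of most nuclear mRNAs, was the steadiest of the 9 genes. Its normalized counts were 1553, 1675 and 1604 in KO and 1591, 1657 and 1493 in WT libraries. The values of the groups overlapped within a narrow band. The log2 fold change was 0.028 (SE 0.061, 95% interval −0.12 to 0.17, limma adjusted *p* = 0.984), which leaves changes of more than 1.13-fold outside the interval.

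*Papolg*, the related nuclear enzyme, differed more between libraries. It had 470, 477 and 560 normalized counts in KO and 452, 541 and 700 in WT libraries. The 2 highest values came from pair 3 and the lowest from WT of pair 1. The log2 ratios of the pairs were 0.055, −0.18 and −0.32, and the log2 fold change was −0.15 (SE 0.091, 95% interval −0.37 to 0.069, unadjusted *p* = 0.148, limma adjusted *p* = 0.970). With 1 pair left out it was −0.25 (without pair 1) to −0.063 (without pair 3). Per kilobase, *Papolg* was at 0.364, 0.342 and 0.419 of the level of *Papola* in KO and at 0.341, 0.392 and 0.563 in WT libraries. Among these ratios too, the WT library of pair 3 stood highest. The translated products of the pair were 62.0% identical over aligned residues, and 0.355% of the 75-base words of *Papolg*, and 0 of those of *Papola*, occurred in another gene.

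*Pabpc1*, the main cytoplasmic poly(A)-binding protein, had the highest level of the 9 genes. Its normalized counts were 4346, 4309 and 4072 in KO and 3969, 4544 and 3932 in WT libraries. The highest and the lowest value were both from WT libraries. The log2 fold change was 0.035 (SE 0.065, 95% interval −0.12 to 0.19, limma adjusted *p* = 0.975).

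*Pabpc4*, which also binds tails in the cytoplasm and is known from activated T cells, had 603, 773 and 673 normalized counts in KO and 640, 733 and 692 in WT libraries. Here the highest and the lowest value were both from KO libraries. The log2 fold change was −0.017 (SE 0.069, 95% interval −0.18 to 0.15, limma adjusted *p* = 0.992). The level of *Pabpc4* is uncertain because of its copies: 44.8% of its 75-base words (1896 of 4234) also occurred in other genes, 1818 of them in *Gm10110*, and the authors left out fragments that mapped to several places. *Gm10110* itself had 117 fragments over the 6 libraries, against 4145 for *Pabpc4*. The corresponding share was 4.98% for *Pabpc1*. The proteins of *Pabpc1* and *Pabpc4* were 79.7% identical over aligned residues.

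*Pabpn1*, the nuclear protein that controls the length of new tails, had 221, 241 and 277 normalized counts in KO and 213, 239 and 229 in WT libraries. It was higher in the KO library of all 3 pairs, with log2 ratios of 0.049, 0.010 and 0.27, and was the single member of the 7 with this pattern, which 11.7% of all 12322 tested genes showed (24.8% had the same direction in all 3 pairs, counting both directions). The log2 fold change was 0.11 (SE 0.097, 95% interval −0.12 to 0.34, limma adjusted *p* = 0.970), and without pair 3 it was 0.030. *Gm20521* overlaps 651 of the 3035 exon bases of *Pabpn1* on the same strand (21.4%), and fragments there may have been left uncounted, which makes its level uncertain. *Gm20521* had 2 fragments in all.

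None of the 7 tested members passed an adjusted *p* of 0.05 in limma, as was the case for all tested genes (0% lower and 0% higher), the smallest adjusted *p* of any gene being 0.653. At an unadjusted *p* under 0.05, 0 of the 7 passed, against 4.7% of all genes by limma (3.03% lower and 1.67% higher in KO) and 4.61% by edgeR. With DESeq2, 0 members passed, against 0.232% of the 9894 genes given an adjusted *p*, and *Tent5a* was given none. The values of KO and WT libraries were without overlap for 0 of the 7 members and for 6.83% of all genes. The median log2 fold change was 0.028 over the 7 members, with 4 positive and 3 negative, and 0.00067 over all tested genes.

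**Figure D1:**
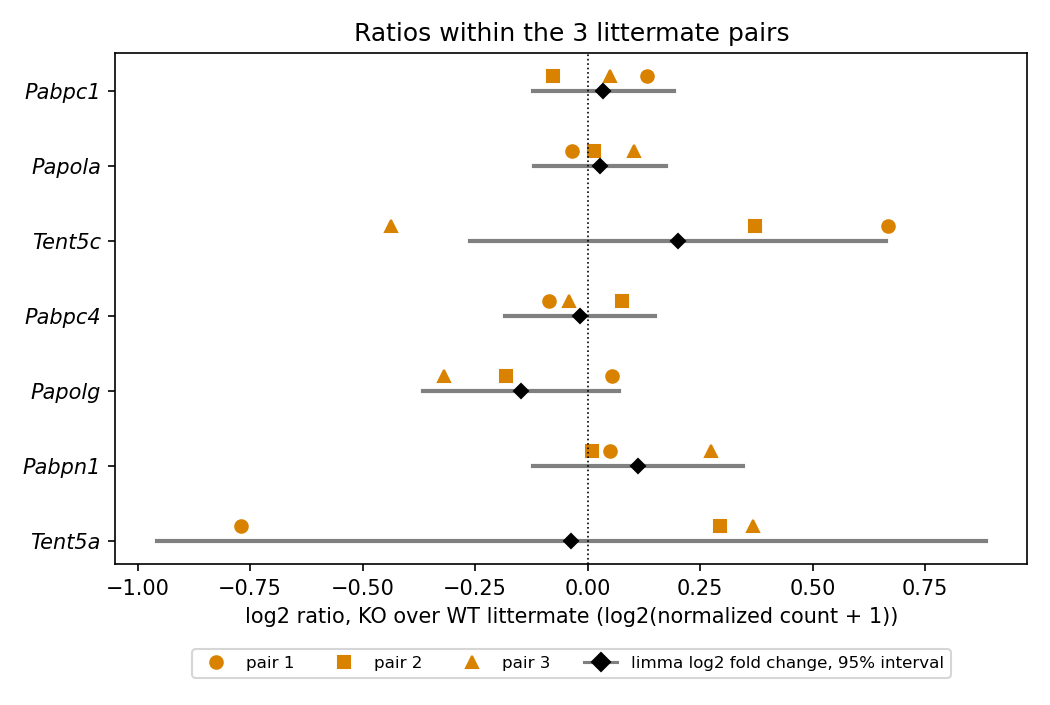
Log2 ratio of KO over WT littermate (x axis, log2(normalized count + 1)) for the 7 tested members, with 1 point per pair and the limma log2 fold change with its 95% interval below them. Every interval spans 0, and *Tent5c* and *Tent5a* have the widest ones, with pairs on both sides of 0.

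Compared per kilobase of exon, *Pabpc1* stood highest at 642 ± 37.0 normalized counts per kb (SD, n = 6 libraries). *Papola* (242 ± 10.2), *Tent5c* (212 ± 71.8) and *Pabpc4* (170 ± 15.3) followed, then *Papolg* (97.1 ± 16.7) and *Pabpn1* (78.0 ± 7.37). Neighbours in this order overlapped in their ranges over libraries for *Papola* with *Tent5c*, *Tent5c* with *Pabpc4* and *Papolg* with *Pabpn1*. *Tent5a*, at 2.42 ± 1.16, was apart from all of these.

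Among all tested genes, 95.6% had a lower level per kb than *Pabpc1*, 88.8% than *Papola*, 87.1% than *Tent5c* and 1.53% than *Tent5a*. The ratio of *Tent5c* over *Papola* per kb was 1.39, 0.641 and 0.789 in KO and 0.853, 0.501 and 1.15 in WT libraries. *Tent5c* was above *Papola* in KO of pair 1 and WT of pair 3, and below it in the other 4 libraries. With the length of the longest coding transcript in place of all exon bases, the means were 364 per kb for *Papola* and 229 for *Tent5c*. With exon bases that overlap no other gene, *Pabpn1* reached 99.3 per kb, and its place relative to *Papolg* was exchanged.

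**Figure D2:**
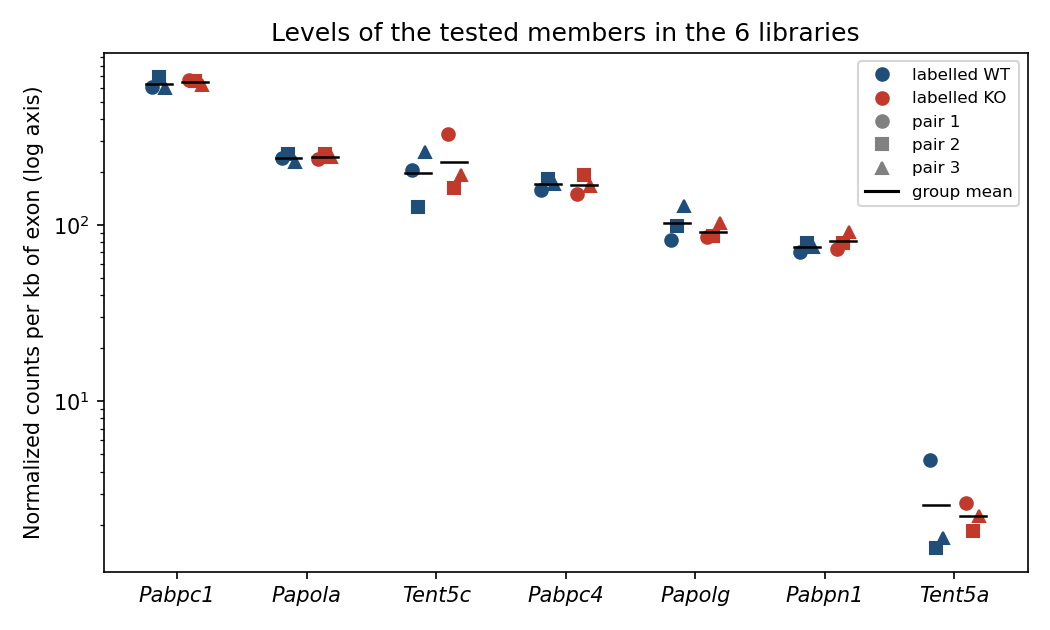
Normalized counts per kilobase of exon (log axis) of the 7 tested members, with 1 point per library, shaped by pair and coloured by genotype label, and black bars for group means (n = 3). *Pabpc1* lies highest in every library and *Tent5a* lowest, while the points of *Tent5c* spread from 126 to 327.

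The spread over the 6 libraries set *Tent5c* apart from the other well-expressed members. The range of log2(normalized count + 1) over libraries was 1.38 for *Tent5c*, larger than in 97.2% of the 5774 genes that averaged 200 normalized counts or more, whose median range was 0.30. It was 0.17 for *Papola* (larger than in 11.4% of these genes), 0.21 for *Pabpc1* (22.8%), 0.36 for *Pabpc4* (62.9%), 0.37 for *Pabpn1* (66.3%) and 0.63 for *Papolg* (89.2%). The spread of *Tent5c* did not follow the genotype label, since each group held both high and low libraries. *Tent5a* had a range of 1.55, at a level too low for this group of genes.

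**Figure D3:**
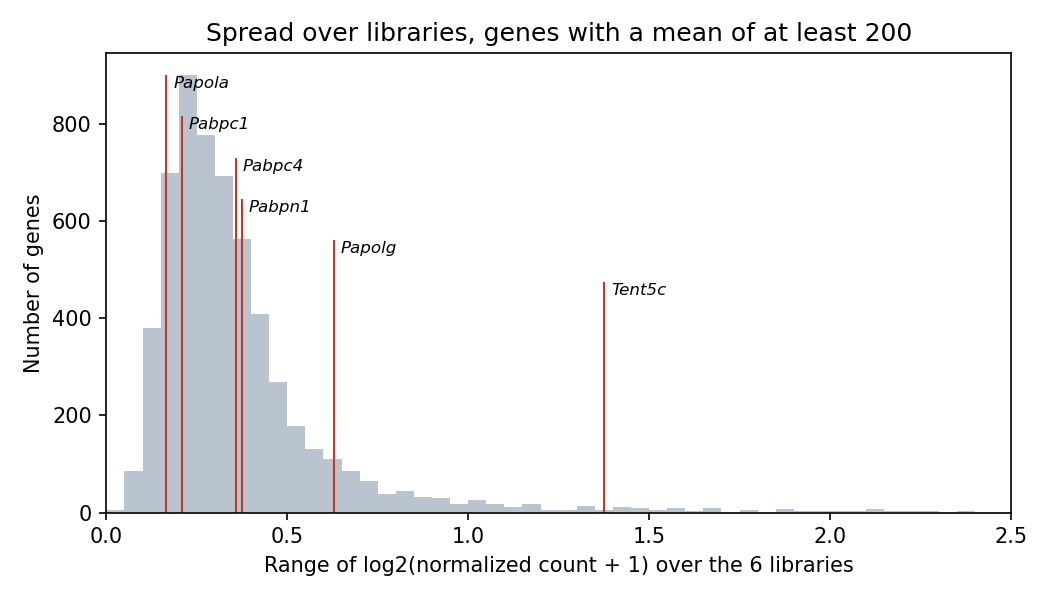
Number of genes (y axis) by the range of log2(normalized count + 1) over the 6 libraries (x axis), for genes averaging 200 normalized counts or more, with red lines at the members. *Papola* and *Pabpc1* lie left of the median of 0.30 and *Tent5c* lies far to the right at 1.38 (56 genes beyond 2.5 are not drawn).

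The genes whose profile over the 6 libraries was most like that of *Tent5c* were found by the root mean square difference of centred log2 values, over 12322 genes with a median difference of 0.476. They were *Rps6ka2* (0.114), a kinase gene, *Cd36* (0.123), a scavenger receptor gene, *Dennd5b* (0.130), *Slamf9* (0.139) and *Prdm1* (0.139). Of these, *Rps6ka2* (9.41 to 20.8 normalized counts) and *Slamf9* (8.36 to 27.4) were low, where counting error adds to a profile. *Prdm1* encodes Blimp-1, the repressor that directs B cells into the plasma cell fate. Its normalized counts were 565, 207 and 286 in KO and 325, 206 and 409 in WT libraries. These values rank the 6 libraries in the order that *Tent5c* does, but 207 (KO) and 206 (WT), from littermates, were nearly tied. *Prdm1* was picked for its likeness to *Tent5c* in these same libraries, so a similar order follows from that choice. How many other genes share the order was not counted.

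The regulators *Xbp1* and *Irf4* stood close as well, but ranks were taken for only part of the plasma cell list. *Slamf7*, *Ell2*, *Mzb1* and *Ly6k* were not ranked. *Xbp1*, the transcription factor of the secretory programme, ranked 10 by this measure and *Irf4*, which acts upstream in the same fate, ranked 15. Surface and secreted markers were less alike, with *Sdc1* (CD138) at rank 807 and *Jchain* at 3077. *Pabpc1* ranked 6487. With 6 libraries of 3 pairs, these ranks describe the libraries and were not tested. In bulk RNA, fewer cells of a type and less RNA per cell cannot be told apart.

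**Figure D4:**
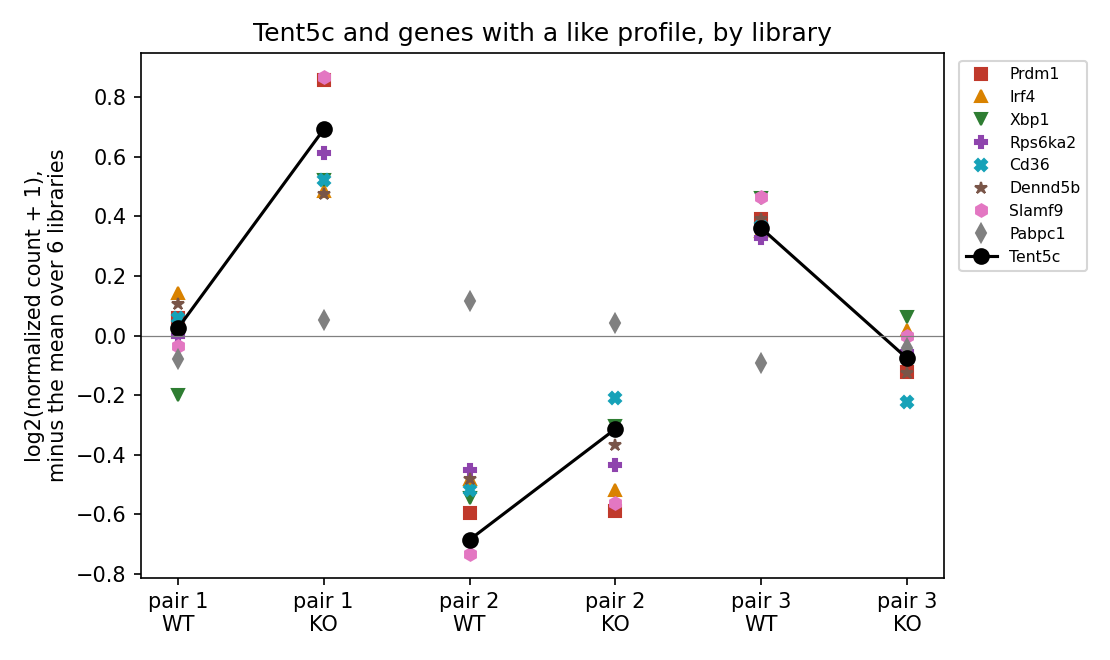
Log2(normalized count + 1) minus its mean over the 6 libraries (y axis) for *Tent5c* (black, littermates joined), its 5 most alike genes, *Irf4*, *Xbp1* and, for contrast, *Pabpc1*, by library (x axis). KO of pair 1 and WT of pair 3 lie high and both libraries of pair 2 lie below 0 for *Tent5c* and the like genes, while *Pabpc1* stays near 0.

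The level of *Tent5c* was also set against plasma cell markers within each library, a comparison added after the data were seen and given no test. On the log2 scale, the KO minus WT difference of *Tent5c* relative to *Prdm1* was −0.13, 0.37 and 0.079 in pairs 1, 2 and 3. Relative to *Xbp1* it was −0.054, 0.13 and −0.039, and relative to *Irf4* it was 0.32, 0.41 and −0.10. These 3 genes were among the most alike to *Tent5c*, so small differences follow from that choice.

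Relative to *Sdc1* the differences were 0.33, 0.35 and 0.062, and relative to *Jchain* they were 0.25, 0.62 and 1.14. Over the mean of these 5 markers they were 0.14, 0.37 and 0.23, but without *Jchain* they were 0.12, 0.31 and −0.00013, so the value of pair 3 came from *Jchain*. In pairs 1 and 2 the markers themselves went in different directions. In pair 1 the log2 ratios of KO over WT were 0.34 to 0.80 for the 5 markers above. They were −0.12 for *Mzb1*, −0.72 for *Ly6k* and −0.027 for *Slamf7*, with 0.098 for *Ell2*. In pair 3 all 9 tested markers were lower in KO, from −1.57 for *Jchain* to −0.16 for *Slamf7*, and *Tent5c* was at −0.44. Over all 9 tested markers of the list, the differences of *Tent5c* were 0.46, 0.40 and 0.14. The part that the number of plasma cells in a culture has in the level of *Tent5c* was not tested.

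*Tent5a* had other near profiles, *Lmna* (0.131), *Gbp10* (0.144), *Map7* (0.166), *Ddx60* (0.183) and *Rnf183* (0.190), against a median difference of 0.536. *Gbp10* encodes an interferon-inducible guanylate-binding protein. All 5 were highest in WT of pair 1, where *Tent5a* was highest, which follows from their choice by likeness to *Tent5a*. *Lmna* (6.67 to 20.8 normalized counts), *Gbp10* (13.6 to 40.6) and *Rnf183* (16.9 to 50.1) were also low. *Prdm1* ranked 8270 for *Tent5a*.

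Further genes of tail metabolism were counted by list. Of 8 other poly(A) and poly(U) polymerases, 7 were tested, with a median log2 fold change of 0.028 (4 positive and 3 negative) and 0 at an unadjusted *p* under 0.05. *Tent2*, a cytoplasmic poly(A) polymerase, had 403 ± 39.3 normalized counts in KO and 425 ± 38.1 in WT libraries (SD, n = 3), and *Tut4*, which adds uridines to short tails, had 858 ± 11.6 and 844 ± 87.9. *Tut1*, which modifies U6 RNA, had 334 ± 12.2 and 311 ± 8.93. Its KO and WT values did not overlap and were higher in KO in all 3 pairs, with a log2 fold change of 0.10 (limma adjusted *p* = 0.970). It was 1 of the 7 tested genes of the list with either pattern, against 6.83% of all tested genes without overlap and 11.7% higher in all 3 pairs. *Papolb*, known from the testis, had 1 fragment.

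Of 7 other poly(A)-binding proteins, only *Zc3h14*, a nuclear one, was tested, with 945 ± 40.2 normalized counts in KO and 910 ± 28.3 in WT libraries and a log2 fold change of 0.054 (limma adjusted *p* = 0.970). *Pabpc1l*, the embryonic form, had 19 fragments, of which 12 lay in WT of pair 3. *Pabpc5* had 4 fragments and *Pabpn1l* had 3. *Pabpc2*, *Pabpc4l* and *Pabpc6* were at 0 in all 6 libraries, which at this depth does not show that they are absent.

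Of 14 partners of poly(A)-binding proteins in translation and decay, 13 were tested, with 0 at an unadjusted *p* under 0.05, a median log2 fold change of 0.0057, and 9 positive and 4 negative. *Eif4g1*, the scaffold that joins the cap complex to the tail, had 3241 ± 94.3 normalized counts in KO and 3232 ± 163 in WT libraries. *Larp1*, which binds mRNAs of the translation machinery, had 1376 ± 45.0 and 1307 ± 45.1, and *Paip2*, an inhibitor of PABPC1, had 697 ± 41.5 and 705 ± 24.7. In this list 2 genes were higher and 1 was lower in KO in all 3 pairs, against 11.7% and 13.1% of all genes. The KO and WT values did not overlap for 1 of the 13, against 6.83% of all genes.

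All 18 cleavage and polyadenylation factors were tested, with 0 at an unadjusted *p* under 0.05, a median log2 fold change of 0.0073, and 11 positive and 7 negative. Their log2 fold changes lay between −0.088 and 0.078. In all 3 pairs 1 of the 18 was higher and 2 were lower in KO, against 11.7% and 13.1% of all genes. The KO and WT values did not overlap for 0 of them, against 6.83%. *Cpsf6*, a subunit of cleavage factor I, had 1963 ± 126 normalized counts in KO and 1931 ± 216 in WT libraries. *Cpsf2*, a subunit of the complex that recognizes the polyadenylation signal, had 970 ± 86.8 and 918 ± 72.9, and *Ssu72*, a phosphatase of RNA polymerase II, had 585 ± 29.3 and 589 ± 73.7.

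**Figure D5:**
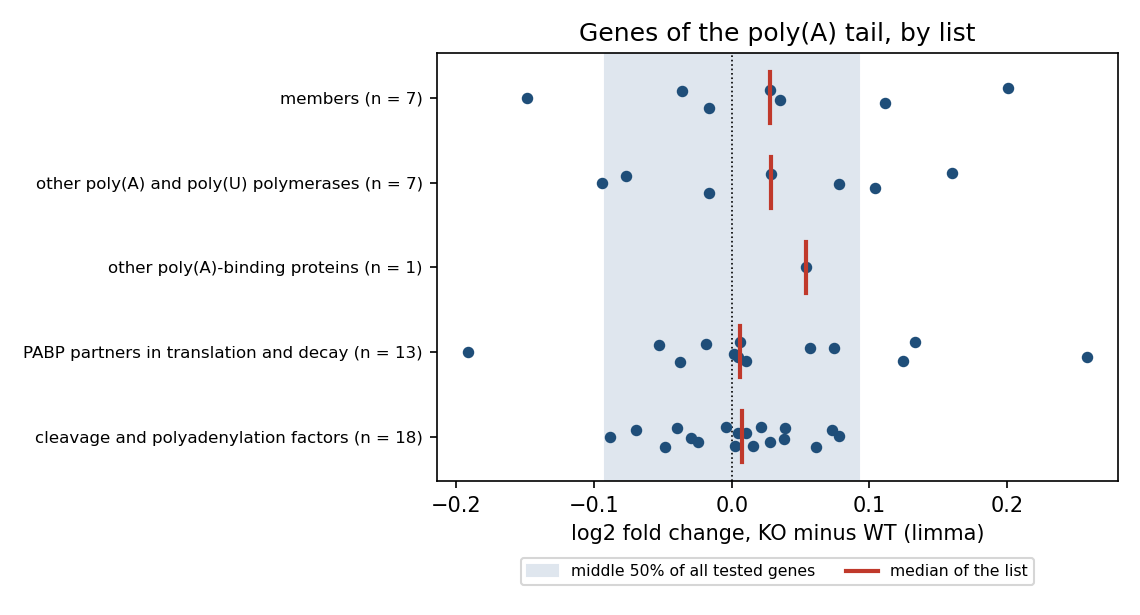
Limma log2 fold change (KO minus WT, x axis) of each tested gene by list (y axis), with the median of each list in red and the middle 50% of the 12322 tested genes shaded. The 18 cleavage and polyadenylation factors all lie within the shaded band, and the members with the largest values on either side are *Tent5c* and *Papolg*.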

How the data were processed

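Per the labels, total RNA was depleted of ribosomal RNA and made into dUTP strand-specific libraries. The authors trimmed reads with cutadapt, aligned them with STAR 2.6.1a to GRCm38 (mm10), and used featureCounts (Subread 1.6.3, Gencode vM19) to count properly paired fragments per gene by strand. The authors then scaled the counts with the size factors of DESeq2, so the deposited signal is a normalized count. Such scaling hides a change shared by most transcripts, and 0 ERCC spike-in entries were among the values. Low mapping quality removed fragments with several positions.

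Whole fragments were recovered from the values (100% of values above 0 within a tolerance of 0.001). Symbols and exon lengths came from Gencode vM21, which matched 54409 of 54446 identifiers and can differ in exons from vM19. The test was limma 3.58.1 (R 4.3.3, lmFit and eBayes with trend) on log2(normalized count + 1), limited to 12322 genes that averaged 10 or more, with the pair as a block, two-sided, with Benjamini-Hochberg adjustment. Alternatives on the recovered fragments used edgeR 4.0.16 and DESeq2 1.42.0. The scripts were tested on simulated data.

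Littermates pair the samples, per the methods of the study, and were matched here by the replicate number in the labels. Deviations from the group means correlated positively between the libraries of each pair (0.328, 0.685 and 0.170). Correlations between libraries of different pairs were not computed. Named are all 9 members, the 3 genes of each list with the highest level per kb and any with an unadjusted *p* under 0.05, and the 5 genes most like each expressed TENT5 gene. Others, such as *Papolb* and the low poly(A)-binding genes and plasma cell markers other than *Prdm1*, were named after their values were seen. Members and lists were chosen with earlier results of these data known. *Atxn2* and *Atxn2l* were misspelled in their list and matched under these symbols. Windows around the aspartate codons, identities and shared 75-base words came from Gencode vM21 transcripts.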

Additional observations from a re-analysis of the deposited data

How the results depend on the processing

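No member passed an adjusted *p* of 0.05 under any of the 12 alternatives, and 77 of 83 member values kept their direction. Part of that agreement was fixed in advance. Another filter on low values, or a fit without the replicate block, leaves the log2 fold change of a gene unchanged. *Tent5c* had an adjusted *p* of 0.183 to 1.00 over them. Without the replicate block its log2 fold change stayed at 0.20, as complete pairs require, and its unadjusted limma *p* was 0.548 in place of 0.334. With 1 replicate left out the log2 fold change of *Tent5c* ran from −0.033 (without replicate 1) to 0.52. Likewise *Tent5a* ran from −0.24 to 0.33, *Pabpc1* from −0.013 to 0.091 and *Pabpc4* from −0.064 to 0.018, each reversed without replicate 1, and *Papola* from −0.010, reversed without replicate 3, to 0.060. *Papolg* ran from −0.25 to −0.063 and *Pabpn1* from 0.030 (without replicate 3) to 0.16. *Pabpc4* was at 0.0026 with quantile normalization. The cause of these reversals was not tested.

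DESeq2 with the replicate block called 22 genes lower and 1 higher in KO, where limma called 0 of each. With 1 replicate left out, limma called 0 to 168 genes lower and 0 to 3 higher. The block changed no other call: without it, 0 genes were lower and 0 higher. Depth limits *Tent5a*, with 8 to 28 fragments per library, and gives no comparison for *Tent5b* and *Tent5d*. Lengths of the longest coding transcript, an alternative added after the data were seen, gave *Pabpc1* 1489, *Papola* 364 and *Tent5c* 229 normalized counts per kb and the same order of the members.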
